A study of Mus musculus with 56 samples.

Results

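The response to Wnt3a was measured in β-catenin fl/fl cells, which carry floxed alleles and no mutation of β-catenin. The 4 samples described here were chosen by their column labels from the 56 of the series, and comprised 2 samples kept with Wnt3a at 100 ng/ml and 2 samples without it for 3 days. All cells derived from mammary tumors of FVB/N female mice with the MMTV-PyMT transgene, in which the mouse mammary tumor virus promoter drives the polyoma middle T oncogene in the mammary epithelium. In fl/fl cells both alleles hold loxP sites and neither was deleted. They were compared with D164A/fl cells, which hold the point mutation beside a floxed allele, and with D164A/- cells, in which Cre recombinase had removed that floxed allele. Each of these genotypes had the same 2 against 2 samples, and fl/fl cells had another 2 untreated samples that belonged to the TGFβ experiment. The methods call the replicates biological duplicates, but the labels do not tell whether they were separate lines or cultures of 1 line. The p-values therefore describe only the spread between the samples fitted, which include those of the D164A cells and of the TGFβ experiment. A genotype cannot be told apart from the lines that represent it.

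Wnt ligands such as Wnt3a bind Frizzled and Lrp receptors, which stops the destruction complex of Axin, Apc and their kinases from marking β-catenin for degradation. β-catenin then enters the nucleus, binds TCF/LEF transcription factors and recruits co-activators, among them the Bcl9 proteins, whose binding the D164A mutation abolishes. Several of the genes switched on in this way are brakes on the pathway, and in the mammary gland Wnt signals are best known for maintaining stem and basal cells.

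The deposited values are read counts divided by an effective library size, called CPM (counts per M reads) below. The 4 samples held 24.15 to 33.68 M reads on genes, so that 1 read was worth 0.0315 to 0.0451 CPM. A luminal epithelial identity was checked on 22 marker genes, and 13 of them had at least 1 CPM in all 4 samples. Krt8 and Krt18, which encode keratins of luminal cells, lay between 371 and 1390 CPM in every sample, and the epithelial adhesion gene Epcam between 328 and 512 CPM. The progesterone receptor gene Pgr, Kit and the milk protein genes Csn2, Wap and Lalba had at most 3 reads in each of them. Foxa1 of the luminal list stayed under 1 CPM in all 4. Of 14 basal markers, 5 reached 1 CPM in all 4, and these were well expressed. Krt14 lay between 134 and 785 CPM, Itga6 between 258 and 547, Itgb4 between 341 and 878, Cav1 between 297 and 901 and Trp63 between 26.7 and 77.9. Of the other basal markers, Krt5 lay between 0.451 and 5.44 CPM and Lgals7 between 0.0902 and 2.21. Krt15, Acta2, Myh11, Cnn1, Tagln, Oxtr and Mylk stayed under 1 CPM in all 4. Parts of the luminal and of the basal list were thus both present, and other parts of each were not. At most 3 reads per sample were found for 7 of 10 immune, 4 of 10 fibroblast, 4 of 6 endothelial and 4 of 5 adipocyte markers. In RNA from whole cultures, a smaller share of cells of 1 type cannot be told apart from less RNA per cell.

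Axin2 had the largest rise in response to Wnt3a, followed by Stra6, and the rises of Notum, Tcf7 and Lgr6 placed further Wnt pathway genes among those called. Mme, Tmed5 and Hsp90aa1 had the largest falls with the GC trend removed. These genes passed the test whether or not a trend of the values with GC content was removed. Log2 fold changes are differences of log2(CPM + 1) between treated and untreated samples, which understates the change of genes with few reads. Genes were called with limma at a Benjamini-Hochberg adjusted p of at most 0.05 and a change of at least 2-fold, with samples of the same number treated as a pair.

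The numbers of genes called moved when a trend with the GC content of the transcripts was removed. In the deposited values, 1489 of 12868 genes (11.6%) were called, with 122 up (0.948%) and 1367 down (10.6%). With the trend removed, 690 of 12779 genes (5.4%) were called, with 279 up (2.18%) and 411 down (3.22%). Both fits called 38 genes as up (0.297% of genes) and 371 as down (2.9%) with the same direction in both pairs. Another 84 genes passed as up and 980 as down only before the trend was removed, and 238 as up and 40 as down only afterwards. The 3 genes Brcc3, Prrg1 and Lpar6, singled out after their values were seen, were called down before and up after the removal. Without the pairing, 66 genes (0.513%) were called in the deposited values and 113 (0.884%) with the trend removed, and both fits shared 12 genes up and 23 down. Leaving out pair 1, both fits called 47 genes up and 255 down. Leaving out pair 2, they called 108 up and 680 down.

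The trend was strongest in pair 1. Over the 9313 genes whose mean reached 10 CPM, the median change between the Wnt3a and the untreated sample of pair 1 went from -1.54 in the 20% of genes with the lowest GC content through -0.39, 0.23 and 0.65 to 0.90 in the 20% with the highest. The Spearman correlation of change and GC content across genes, which are not independent replicates, was 0.83. In pair 2 the same medians were -0.39, 0.02, 0.15, 0.21 and 0.25, with a correlation of 0.60. After removal, the medians of both pairs lay between 0 and 0.12. The trend differed between single samples. Set against the mean of all 56 samples, the deviation of high-GC minus low-GC genes was 1.42 in Wnt3a sample 1, which ranked 4 of 56 from the top, and -0.68 in Wnt3a sample 2, which ranked 45. In the untreated samples it was -1.0 and -1.43, with ranks 52 and 56. The 2 untreated fl/fl samples of the TGFβ experiment stood at 0.18 and -0.05. The paired D164A samples had correlations of 0.41 and -0.39 for D164A/fl and of 0.39 and -0.13 for D164A/-, so that the sign changed between pairs of the same treatment. The part of the treatment and of the libraries in this trend was not tested.

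**Figure D1:**
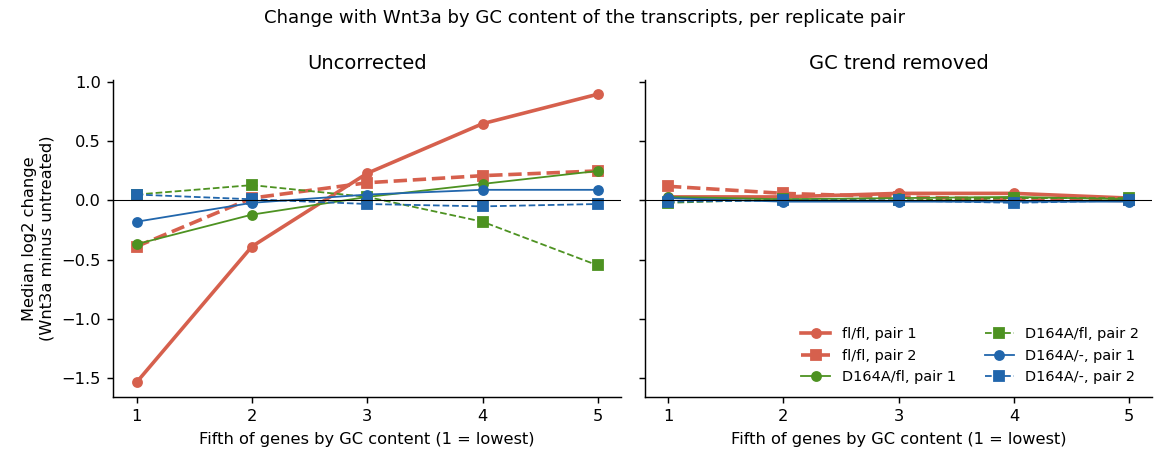
Median change after Wnt3a (log2 scale) against the GC content of transcripts in 5 groups of genes of equal size, for pair 1 and pair 2 of fl/fl, D164A/fl and D164A/- cells, before and after the trend was removed. In fl/fl pair 1 the line climbed from -1.54 to 0.90, in pair 2 from -0.39 to 0.25, and after the removal both were flat.

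Among brakes on the pathway, Axin2 and Notum rose. Axin2, a scaffold of the destruction complex and a widely used reporter of Wnt signaling, had 0.252 and 0.652 CPM without Wnt3a (8 and 17 reads) and 121 and 51.0 CPM with it (2950 and 1131 reads). Both treated samples lay far above both untreated ones, and above the 0.161 and 1.46 CPM of the untreated fl/fl samples from the TGFβ experiment. The log2 fold change was 5.79 ± 0.34 (SE of the limma fit, 2 pairs, limma adjusted p = 6.23e-05) and 5.22 ± 0.32 with the trend removed (limma adjusted p = 4.06e-05). Its change was 6.60 in pair 1 and 4.98 in pair 2. SEs and p-values here and below use the spread over all 24 samples fitted, not that of the 2 pairs alone.

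The gene lies on chromosome 11 at 108917828 to 108950783 of GRCm38. A promoter stretch from RefSeq (GRCm38.p6, chr11:108920099-108920348, plus strand, 5′ to 3′) is shown because Axin2 had the largest rise. It precedes an annotated start that lies within these bounds, so that it is not the sequence before the first base of the gene. None of its letters are marked.
Axin2 promoter: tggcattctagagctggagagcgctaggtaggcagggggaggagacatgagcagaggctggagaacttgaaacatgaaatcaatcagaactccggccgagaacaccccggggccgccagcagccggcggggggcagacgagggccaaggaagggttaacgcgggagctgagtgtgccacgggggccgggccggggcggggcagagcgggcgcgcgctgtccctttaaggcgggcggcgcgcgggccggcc
The TCF/LEF core letters CTTTGA, and the longer CTTTGAT that contains them, were searched on both strands of windows from 250 bases before to 50 bases after a start. Neither was found in the single Axin2 window or in the 2 windows of Tcf7. Of all 32851 windows, 5257 (16%) held CTTTGA and 1225 (3.73%) held CTTTGAT. The absence of these letters from so short a window says nothing about sites elsewhere. Notum had no entry.

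Notum, a secreted carboxylesterase that inactivates Wnt ligands, had 2.90 and 2.91 CPM without Wnt3a and 42.9 and 10.3 CPM with it. The treated samples were higher than the untreated ones of the same experiment, but sample 2 lay below the 11.5 CPM of 1 untreated sample of the TGFβ experiment. The log2 fold change was 2.51 ± 0.43 (limma adjusted p = 0.00376) and 1.91 ± 0.28 with the trend removed (limma adjusted p = 0.00178). Without the pairing the limma adjusted p was 0.0898 and 0.0546, respectively, so that Notum was then not called. Of the 14 feedback inhibitors tested, 2 rose (0.948% and 2.18% of all genes) and none fell in either fit. Their median change was 0.16 before and 0.11 after the removal, beside 0.10 and 0.01 over all genes tested. The ubiquitin ligase genes Znrf3 and Rnf43, which remove Frizzled receptors from the cell surface, had changes of 0.31 and 0.67 (0.06 and 0.16 with the trend removed) and were not called. Nkd2, an inhibitor at the level of Dishevelled, had 60.3 and 37.0 CPM without and 84.6 and 18.5 CPM with Wnt3a, so that its pairs moved in opposite directions. Another 10 listed inhibitors, among them Nkd1 and Dkk1 with no read in any of the 4 samples, did not pass the filter on low values.

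Of the 4 TCF/LEF transcription factors, which carry β-catenin to DNA, Tcf7 rose. It had 7.0 and 5.79 CPM without and 32.5 and 26.8 CPM with Wnt3a, and the groups did not overlap. The rise was 2.05 ± 0.14 (limma adjusted p = 0.000117), nearly equal in pair 1 (2.07) and pair 2 (2.03), and 1.60 ± 0.15 with the trend removed (limma adjusted p = 0.000192). Tcf7l2 had 15.6 and 14 CPM without and 25.1 and 22.5 CPM with Wnt3a. Its treated samples were both higher, with limma adjusted p = 0.0378, but the change of 0.65 (0.80 with the trend removed) was under 2-fold and it was not called. Lef1 had no read in the 4 samples, and Tcf7l1 stayed near 1 CPM or below.

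Among receptors, Lgr6 rose. Lgr6 binds R-spondins, secreted proteins that strengthen Wnt signaling, and marks stem cells in skin. It had 6.59 and 2.57 CPM without and 26.2 and 20.1 CPM with Wnt3a, with no overlap between groups. The change was 2.20 ± 0.30 (limma adjusted p = 0.000997) and 1.76 ± 0.28 with the trend removed (limma adjusted p = 0.00268). Of 16 receptors tested, Lgr6 and Fzd2 were called up before the removal (0.948% of all genes) and Lgr6 alone afterwards (2.18%). Median changes of the receptors were 0.21 and 0.03. Fzd2, a Frizzled receptor, had 1.96 and 1.57 CPM without and 6.05 and 3.97 CPM with Wnt3a, and its change went from 1.10 to 0.58.

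**Figure D2:**
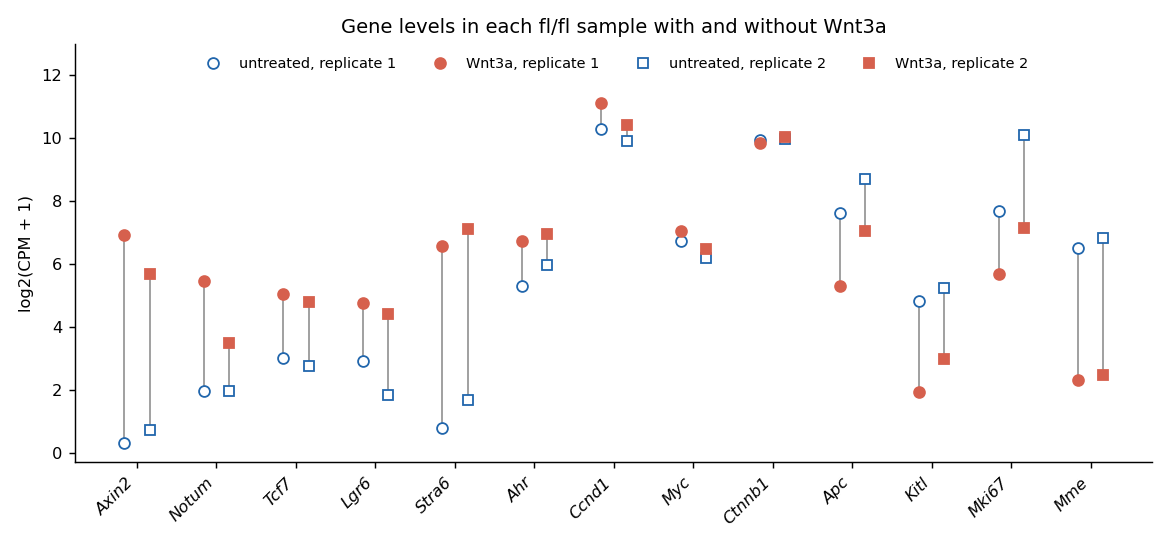
Level of 13 genes on the log2(CPM + 1) scale in each fl/fl sample, with open symbols for untreated and filled symbols for Wnt3a-treated samples (circles for replicate 1, squares for replicate 2) and lines joining the samples of a pair. Axin2 climbed from below 1 CPM to 121 and 51.0 CPM, Mme fell from 90.6 and 113 to 3.97 and 4.60 CPM, and the Ctnnb1 symbols lie on each other.

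Ligand genes and the destruction complex showed few calls. Of 10 genes for Wnt ligands, R-spondins and their secretion, Rspo3 was called down before the removal (-1.21) and not afterwards (-0.65). Wls, which carries Wnt proteins to the cell surface, was called up after it only. Its levels were 305 and 227 CPM without and 271 and 372 CPM with Wnt3a, so that the pairs went in opposite directions in the deposited values and the rise of 1.14 ± 0.10 (limma adjusted p = 0.000148) rested on the correction for its GC content of 43.5%. Of 30 genes for the destruction complex and co-factors, Apc and the kinase gene Csnk1g3 were called down before the removal (10.6% of all genes). Apc alone was called in both fits (2.9% of all genes down). Apc, the scaffold that keeps β-catenin levels low, had 195 and 416 CPM without and 38.3 and 131 CPM with Wnt3a. Both treated samples were below both untreated ones, and the fall was -1.99 (limma adjusted p = 0.000273) and -1.47 with the trend removed (limma adjusted p = 0.000148). Without the pairing Apc was called in neither fit (limma adjusted p = 0.0967 and 0.0925). Ctnnb1, which encodes β-catenin, had 978 and 1010 CPM without and 920 and 1060 CPM with Wnt3a, a change of -0.01 (-0.32 with the trend removed). The co-activator genes Bcl9 and Bcl9l had changes of 0.57 and 0.70, which were 0.07 and 0.08 with the trend removed, and were not called.

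Of 31 genes listed as Wnt targets in other tissues, 2 rose (0.948% of all genes) and 1 fell (10.6%) before the removal. Afterwards none rose (2.18%) and Sox4 fell (3.22%). Median changes were 0.22 and 0.06. Procr, a surface receptor of mammary stem cells, had 78.6 and 113 CPM without and 163 and 298 CPM with Wnt3a and was called at 1.21 before the removal, but its 0.73 afterwards was under 2-fold. Ccnd1, the cyclin D1 gene, had 1270 and 972 CPM without and 2230 and 1360 CPM with Wnt3a. Its change of 0.65 (0.46 with the trend removed) was under 2-fold. Myc had 105 and 72.6 CPM without and 133 and 88.2 CPM with Wnt3a, and its change of 0.31 became -0.18 when the trend was removed.

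The remaining genes with the largest rises in both fits were not members of the pathway lists. Stra6, a receptor that takes up retinol, had 0.726 and 2.19 CPM without and 93.5 and 139 CPM with Wnt3a, with no overlap and a change of 5.62 ± 0.45 (limma adjusted p = 0.000156), or 5.08 ± 0.48 with the trend removed (limma adjusted p = 0.000197). Hhip, which binds and restrains Hedgehog ligands, had 14.4 and 14.1 CPM without and 37.4 and 35.2 CPM with Wnt3a, and its change went from 1.29 to 2.62 when the trend was removed. Treated samples of both genes lay above the untreated ones.

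Mmp24, a membrane-bound metalloproteinase, had 2.78 and 5.83 CPM without and 50.9 and 33.8 CPM with Wnt3a (3.07, and 2.50 with the trend removed). Ephb6, an Eph receptor without kinase activity, had 15.1 and 9.58 CPM without and 232 and 40.5 CPM with Wnt3a (2.92 and 2.36). Gxylt2, a xylosyltransferase, had 0.126 and 0.192 CPM without and 2.21 and 7.22 CPM with Wnt3a (2.15 and 2.61). The treated samples of these 3 genes lay above the untreated ones of the same experiment, but the 49.6 and 42.3 CPM of Ephb6 in the untreated samples of the TGFβ experiment exceeded its treated sample 2. Without the pairing, Ephb6 and Hhip were called only with the trend removed (limma adjusted p = 0.04 for both). Cyp4f39, a fatty acid hydroxylase, had 0.347 and 1.96 CPM without and 46.1 and 4.37 CPM with Wnt3a, and its rise (3.00 and 2.56) was carried mainly by sample 1. Ccdc80 had 3 and 1 reads without and 76 and 98 reads with Wnt3a (2.15 and 2.06).

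The aryl hydrocarbon receptor Ahr and its best known target Cyp1a1 were both called up in both fits. Ahr had 38.8 and 61.5 CPM without and 105 and 123 CPM with Wnt3a, with changes of 1.20 (limma adjusted p = 0.00473) and 1.57 with the trend removed (limma adjusted p = 0.00135). Cyp1a1 had 0.0946 and 2.15 CPM without and 2.70 and 23.4 CPM with Wnt3a, with changes of 2.36 and 2.28. The Cyp1a1 level of treated sample 1 was close to that of untreated sample 2, so that the order held clearly only within pairs. Without the pairing Cyp1a1 was called in neither fit (limma adjusted p = 0.0945 and 0.104) and Ahr only with the trend removed (limma adjusted p = 0.0685 and 0.0231).

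The study's own list of genes that respond to Wnt3a and differ in cells with impaired binding of β-catenin to Bcl9 proteins, which was chosen in part on samples of this series and is therefore no independent evidence of direction, had 36 genes tested. Of these 18 were called up before (0.948% of all genes) and 9 after the removal (2.18%), 7 of them in both fits (0.297%), and none was called down. Without the pairing, 2 and 5 were called up. The median change was 1.02 and 0.68, and 34 of the 36 were above 0 with the trend removed, beside 6533 of 12779 over all genes. Besides Ahr and Mmp24, the surface protein genes Ly6a and Ly6c1 were called in both fits. Ly6a, the stem cell antigen Sca-1, had 408 and 398 CPM without and 1130 and 645 CPM with Wnt3a (1.08 and 1.16). Ly6a and Ly6c1 belong to a cluster of near-identical genes. As only unique hits were kept, reads that match several copies equally were not counted, and others may have been assigned to the wrong copy.

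Genes that fell belonged to several functions. Mme, which encodes the surface peptidase CD10 of basal mammary and stromal cells, had 90.6 and 113 CPM without and 3.97 and 4.60 CPM with Wnt3a. Treated samples lay far below untreated ones, and also below the 45.5 and 91.2 CPM of the untreated samples of the TGFβ experiment. The change was -4.27 ± 0.23 (limma adjusted p = 4.51e-05) and -3.31 ± 0.25 with the trend removed (limma adjusted p = 0.000119). Kitl, the ligand of the Kit receptor, had 27.5 and 37.1 CPM without and 2.86 and 6.99 CPM with Wnt3a, with no overlap and changes of -2.57 and -2.27 (limma adjusted p = 0.000117 and 4.06e-05). Prlr, the prolactin receptor, had 6.40 and 8.36 CPM without and 0.736 and 0.406 CPM with Wnt3a (-2.41 and -1.74).

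Tmed5, a cargo receptor of the secretory pathway, had 33.6 and 160 CPM without and 5.35 and 15.2 CPM with Wnt3a (-2.88 and -2.81). Dek, a chromatin protein, had 113 and 266 CPM without and 15.1 and 67.4 CPM with Wnt3a (-2.40 and -2.38). Mki67, which encodes the proliferation antigen Ki-67, had 205 and 1100 CPM without and 50.2 and 140 CPM with Wnt3a (-2.49 and -2.30). In these genes the untreated samples differed from each other by more than 2-fold and both treated samples stayed below both. The untreated samples of the TGFβ experiment also lay above both treated ones for Tmed5 (64.5 and 62.5 CPM) and Mki67 (166 and 523 CPM). For Dek they had 60.9 and 140 CPM, and the first lay below treated sample 2. Hsp90aa1, a heat shock chaperone with processed pseudogenes that may share its reads, had 291 and 573 CPM without and 30.3 and 183 CPM with Wnt3a (-2.43 and -2.38). The mRNA 3′ end processing factor Pcf11, the centrosome genes Haus6 and Akap9 and the zinc finger gene Zfp397 completed the 10 largest falls, with changes from -2.23 to -2.19 with the trend removed. Without the pairing, Mme and Kitl were called with the trend removed (limma adjusted p = 0.000339 and 0.0336), while Tmed5, Dek, Mki67 and Hsp90aa1 were not (limma adjusted p = 0.0782 to 0.173).

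**Figure D3:**
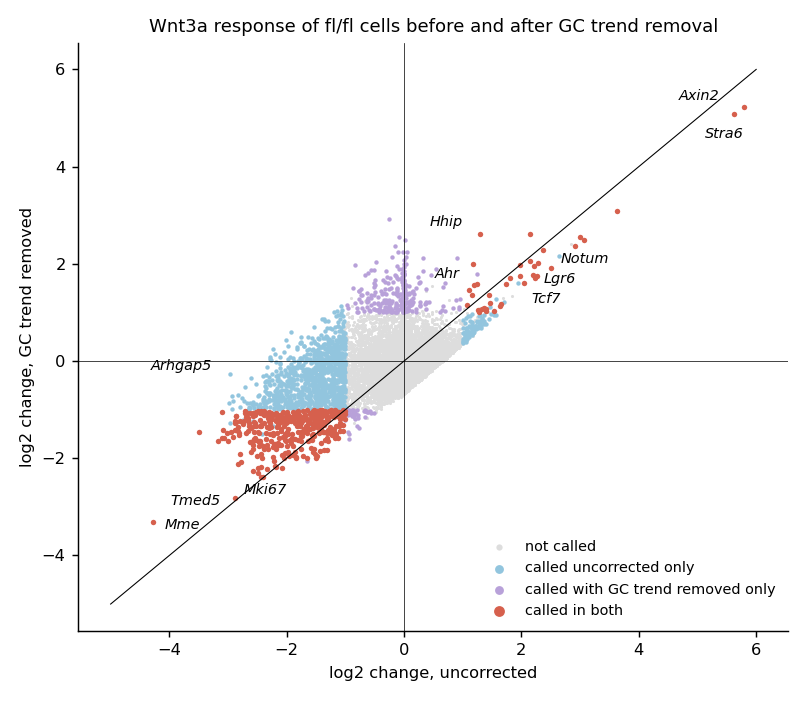
Log2 fold change after Wnt3a in fl/fl cells with the GC trend removed against the change in the deposited values, 1 point per gene tested, coloured by the fits that called it, with a line where both are equal. The 38 genes up and 371 down in both fits (red) fill the upper right and lower left, and the genes called only before the removal (blue) mostly lie within 1 of 0 on the vertical axis.

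The genes called only before the removal differed in GC content from the rest. The 980 down had a median GC content of 41.8% and the 84 up one of 56.4%, beside 50.8% over all genes. Arhgap5 had 35.4 and 173 CPM without and 5.15 and 16 CPM with Wnt3a, but its change of -2.96 became -0.26 (limma adjusted p = 0.699). Rif1 and Kif20b, with roles in replication timing and cytokinesis, went from -2.98 and -2.96 to -0.87 and -1.28 and were no longer called. Of the 84 up, Sprr1a, Klk7 and Tmprss4 had the largest rises. Sprr1a, a cornified envelope protein, had 0.284 and 3.91 CPM without and 43.5 and 4.51 CPM with Wnt3a, so that nearly all of its change lay in pair 1.

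Of the 238 genes called up only after the removal, 153 had a mean under 10 CPM and 89 were under 1 CPM in all 4 samples, and their median GC content was 40.5%. The subtracted curve shifts every gene by its GC content, and for genes near 0 it can make the whole change. Mir703, not near 0 but with a GC content of 31.2%, had 17.3 and 18.2 CPM without and 13.8 and 15.7 CPM with Wnt3a. It was given a rise of 2.92, and Snord47, under 2 CPM in every sample, one of 2.50. Among the 40 called down only then, Rassf4 had 209 and 132 CPM without and 204 and 12.7 CPM with Wnt3a, so that its fall of -2.06 lay in pair 2. The 38 and 371 genes called in both fits had median GC contents of 51.9% and 45.3%, and 21 and 330 of them a mean of at least 10 CPM. Their median transcript lengths were 2809 and 2739 bases, beside 2176 over all genes.

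Among genes called in both fits, pair 1 showed the larger change more often. With the trend removed, the 38 genes up had median changes of 1.84 in pair 1 and 1.25 in pair 2, and 22 of them changed more in pair 1. The 371 genes down had medians of -1.61 and -1.06, and 263 changed more in pair 1. When either pair was left out, 15 of the genes up, among them Axin2, Stra6, Tcf7, Lgr6, Hhip, Cyp1a1, Mmp24, Gxylt2 and Ccdc80, and 118 of those down were still called in both fits. Both Wnt3a samples lay above all 4 untreated fl/fl samples, those of the TGFβ experiment included, for 31 of the 38 genes in the deposited values and for 33 with the trend removed, against 12.5% and 12.3% of all genes. They lay below them for 281 and 314 of the 371 genes down, against 9.75% and 11.8% of all genes. Since 2 of the 4 untreated samples had served to choose these genes, the counts are a description.

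Other gene groups showed few calls. Over all genes tested, 0.948% were called up and 10.6% down before the removal, and 2.18% and 3.22% after it. Without the pairing, neither fit called any tested member of the lists for ligands, the destruction complex, Wnt targets, squamous, basal or luminal genes, the Notch pathway, interferon-stimulated, cell cycle or cholesterol genes, the epithelial-mesenchymal transition, SMAD feedback or markers of other cell types. Of 26 squamous differentiation genes, Sprr1a, Cnfn and the transcription factor gene Grhl3 were called up before the removal and Grhl3 alone afterwards, with median changes of 0.64 and 0.26, beside 0.10 and 0.01 over all genes. Grhl3 had 2.46 and 5.71 CPM without and 39.6 and 11.2 CPM with Wnt3a (2.21 and 1.95), beside 11.5 and 10.7 CPM in the untreated samples of the TGFβ experiment. Of 20 luminal genes, Prlr and Ehf fell in both fits (2.9% of all genes) and none rose. Ehf, an Ets factor of epithelial cells, had 62.8 and 48.1 CPM without and 17.0 and 28.0 CPM with Wnt3a (-1.29 and -1.22). Neither fit called any of 10 basal genes or of 12 Notch pathway genes. The E-cadherin gene Cdh1 had 774 and 633 CPM without and 970 and 569 CPM with Wnt3a (0.09 and -0.17).

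Of 24 interferon-stimulated genes, 4 fell before (10.6% of all genes) and 3 after the removal (3.22%), and the medians were -0.33 and -0.45. Ifit1, an antiviral RNA-binding protein, had 26.1 and 16.6 CPM without and 1.23 and 7.89 CPM with Wnt3a (-2.30 and -1.37), and Ifit2 and the RNA sensor gene Ifih1 fell with it. Rsad2, called before the removal at -1.39, had -0.60 afterwards. Of 30 cell cycle genes, Mki67, Top2a, Ccne2 and Bub1 fell before and only Mki67 after the removal, counts close to those shares of all genes, while the median of the list was 0.33 and 0.25. The cyclin E2 gene Ccne2, with a GC content of 35.1%, went from -2.24 to 0.25. Of 21 cholesterol synthesis genes, only Idi1 fell before the removal and none was called afterwards. Among 23 genes of the epithelial-mesenchymal transition, Itga5 and Tgfbi were called up (0.948% of all genes) and Prrx1 and Tjp1 down (10.6%) before, and none after the removal. Of 16 SMAD feedback genes and TGFβ targets, the receptor gene Tgfbr1 alone was called in both fits (2.9% of all genes down). It had 225 and 232 CPM without and 28.3 and 114 CPM with Wnt3a (-1.98 and -1.10).

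Few markers of other cell types were called. Of 6 fibroblast markers tested, the collagen gene Col3a1 rose in both fits (1.39 and 1.08) and Dcn was called down only before the removal (-1.32 and -0.22). Col3a1 went from 0.221 and 4.33 CPM to 2.66 and 11.2 CPM. The summed level of all 10 fibroblast markers, tested or not, was 7.6 and 17.4 CPM without and 9.85 and 19.1 CPM with Wnt3a. Col1a2, Lum, Thy1 and Fap had at most 3 reads. Csf1r, a macrophage receptor gene, had 55.7 and 51.2 CPM without and 138 and 100 CPM with Wnt3a (1.12 and 0.71), while Ptprc, Adgre1, Lyz2 and Itgam of the same immune list had at most 3 reads in every sample. Neither of 2 endothelial markers tested was called, and the adipocyte marker Fabp4, under 1 CPM in every sample, was called up only after the removal (-0.01 and 1.5). The part of other cells in these values was not tested.

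**Figure D4:**
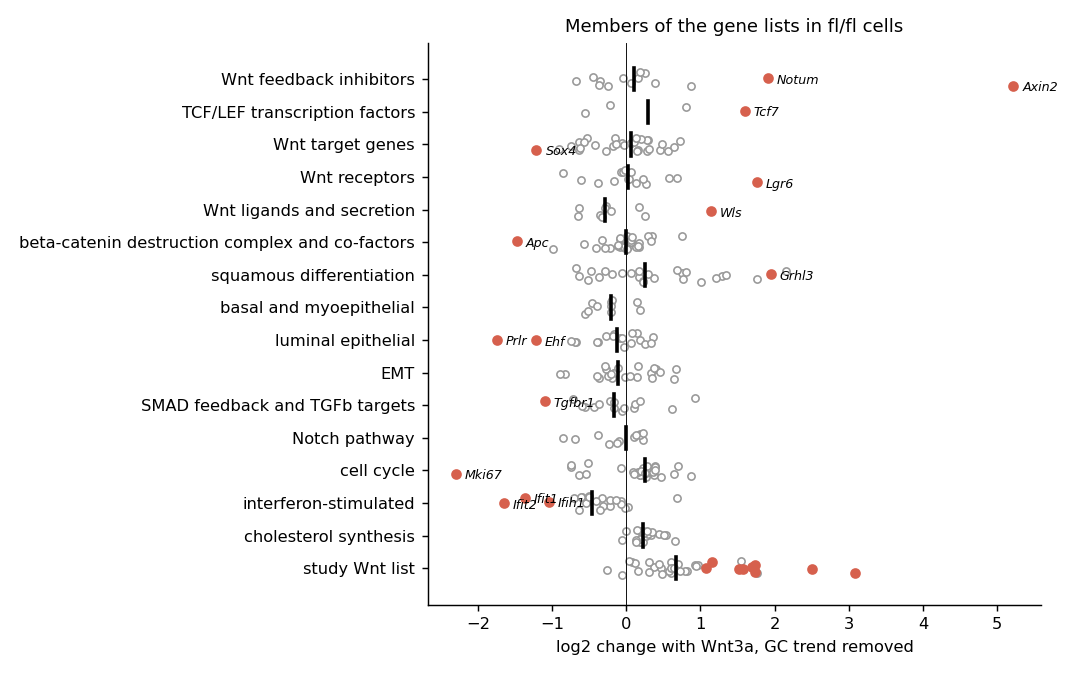
Log2 fold change after Wnt3a in fl/fl cells with the GC trend removed for each tested member of the gene lists, 1 row per list, with black bars for list medians and filled red points for called genes. The bar of the list of the study stands at 0.68 and that of the interferon-stimulated genes at -0.45, while Axin2 lies far to the right at 5.22.

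The genes called in fl/fl cells were then looked up in the D164A genotypes. Axin2, Stra6 and Notum were higher with Wnt3a in both pairs of each genotype, while Tcf7 and Lgr6 responded less in D164A than in fl/fl cells, and Ahr responded more. The test was the difference between the responses (an interaction term), which for D164A/- passed for 511 of 12868 genes (3.97%) and with the trend removed for 352 of 12779 (2.75%), and for D164A/fl for 2153 (16.7%) and 1467 (11.5%). Both differences share the fl/fl samples. Without the pairing, 7 (0.0544%) and 420 genes (3.26%) passed in the deposited values.

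Tcf7 had 55.7 and 53.5 CPM without and 56.7 and 56.2 CPM with Wnt3a in D164A/fl cells, and 34.9 and 46.8 CPM without and 60.6 and 65.1 CPM with it in D164A/- cells. All untreated D164A samples thus exceeded the Wnt3a-treated fl/fl samples. The response differed from that of fl/fl cells by -2.0 ± 0.20 in D164A/fl (limma adjusted p = 0.000526) and by -1.43 ± 0.20 in D164A/- cells (limma adjusted p = 0.0161), and by -1.49 and -1.01 with the trend removed. Without the pairing the difference held for D164A/fl (limma adjusted p = 0.000737) but not for D164A/- cells (limma adjusted p = 0.083).

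Lgr6 had 12.1 and 28.9 CPM without and 15.5 and 16.9 CPM with Wnt3a in D164A/fl cells, and 28.5 and 28.7 CPM without and 19.2 and 21.7 CPM with it in D164A/- cells. Its response minus that of fl/fl cells was -2.40 ± 0.42 and -2.67 ± 0.42 (limma adjusted p = 0.00597 and 0.0175), and without the pairing the second difference had a limma adjusted p of 0.129.

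Axin2 had 1.18 and 1.66 CPM without and 154 and 149 CPM with Wnt3a in D164A/fl cells, and 0.365 and 1.52 CPM without and 39.9 and 95.3 CPM with it in D164A/- cells. The differences from the fl/fl response, 0.19 ± 0.49 and -0.71 ± 0.49, did not pass the test (limma adjusted p = 0.777 and 0.349). With the trend removed they were 0.95 and -0.17 (limma adjusted p = 0.144 and 0.854). This does not show that the responses were equal. Stra6 reached 250 and 388 CPM in D164A/fl and 17.7 and 141 CPM in D164A/- cells from levels below 1 CPM. Its response was larger in D164A/fl than in fl/fl cells by 2.32 (limma adjusted p = 0.0296) and by 2.99 with the trend removed (limma adjusted p = 0.0124). Without the pairing, this held only with the trend removed (limma adjusted p = 0.149 before and 0.0413 after).

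Ahr had 40.2 and 22.8 CPM without and 610 and 482 CPM with Wnt3a in D164A/fl cells, and 27.7 and 25.9 CPM without and 198 and 337 CPM with it in D164A/- cells. All 4 treated D164A samples exceeded the treated fl/fl samples, and the response was larger by 2.92 (limma adjusted p = 0.000634) and 2.02 (limma adjusted p = 0.0167). Mme had 159 and 57.8 CPM without and 57.3 and 30.2 CPM with Wnt3a in D164A/fl cells, and 66.7 and 29.8 CPM without and 27.9 and 19.8 CPM with it in D164A/- cells. Its fall was smaller than in fl/fl cells by 3.09 and 3.38 (limma adjusted p = 0.000636 and 0.00628). Without the pairing, the differences for D164A/fl cells held for Ahr and Mme (limma adjusted p = 0.000871 and 0.017), while those for D164A/- cells did not (limma adjusted p = 0.121 and 0.083).

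Of the 38 genes up in fl/fl cells, 33 had a change above 0 in D164A/- and 33 in D164A/fl cells with the trend removed, against 48.9% and 52.6% of all genes. Their median change was 1.70 in fl/fl, 0.88 in D164A/- and 1.52 in D164A/fl cells, and 12 and 23 were themselves called up, against 0.79% and 5.02% of all genes. The response differed, with and without the trend, for 8 and 11 of them, against 1.4% and 6.85% of all genes. Of the 371 genes down, 317 and 283 were below 0 in D164A/- and D164A/fl cells, with medians of -0.26 and -0.27 beside -1.32 in fl/fl cells, while 51.1% and 47.4% of all genes were below 0. In these genotypes 8 and 25 were called down, against 0.65% and 2.61% of all genes, and the response differed with and without the trend for 92 and 165. In the single fit without the pairing and with the trend removed, the response differed for 1 and 9 of the genes up and 1 and 34 of the genes down. Among all 12779 genes it differed for 8 and 555 in that fit. The genes had been chosen for their change in the fl/fl samples that also enter each difference. A smaller median elsewhere, and more called differences than among all genes, are therefore descriptions only.

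**Figure D5:**
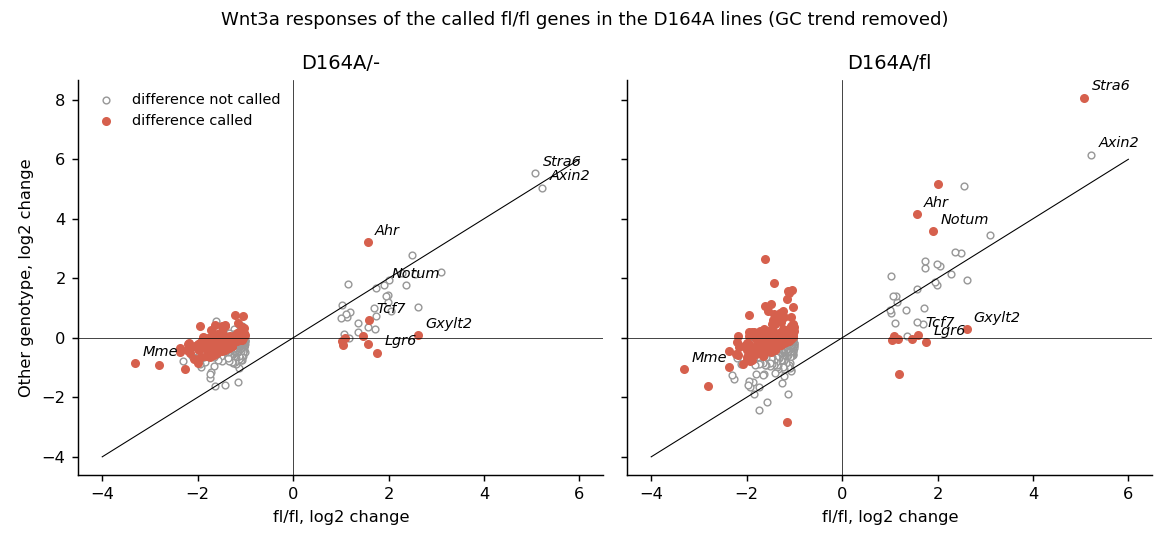
Log2 fold change after Wnt3a with the GC trend removed in D164A/- (left) and D164A/fl cells (right) against that in fl/fl cells, 1 point per gene of the 38 up and 371 down in fl/fl cells, filled red where the difference in response was called with the trend removed, with a line where both are equal. The genes down in fl/fl cells crowd near 0 on the vertical axes, Tcf7, Lgr6 and Gxylt2 lie below the line, and Ahr lies above it in both panels.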

How the data were processed

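Libraries were stranded and made from poly(A) RNA, with single-end reads. According to the methods, the authors mapped reads to mm10 with STAR, kept unique hits and counted reads that started within a RefSeq exon with QuasR, and the statistics used edgeR. The deposited values are a signal, in which the authors scaled each sample's counts to its effective number of M reads, here called CPM. The values were whole multiples of 1 read in 100% of cases at a tolerance of 0.001 reads, and 3 reads were taken as the lowest detected level, for counting error only. The table holds 20314 genes, of which 20261 matched a RefSeq symbol and 20058 had a GC content, the median over protein-coding transcripts in GENCODE vM21. Short transcripts counted in this median like long ones. The median length was 711 bases for Hsp90aa1, 826 for Axin2 and 921 for Mme. The GC content of the transcripts that gave the reads may therefore differ from the value used, which was not tested. The plan had assumed CPM adding to 1 M, but the tests stayed as planned.

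log2(CPM + 1) was fitted with limma 3.58.1 (R 4.3.3, trend on expression) over 24 samples in 12 groups of fl/fl, D164A/fl and D164A/- cells from the Wnt3a and TGFβ experiments. Genes needed at least 1 CPM in at least 2 samples. The replicate number within genotype and experiment was a block, since same-numbered samples deviated together (r = 0.54 for fl/fl with Wnt3a, and 0.32 to 0.92 in the 6 sets; 0.42 and 0.42 to 0.83 with the GC trend removed). This pairing comes from the label numbers and the data, as the labels name no shared day or culture. Adjusted p-values are Benjamini-Hochberg over all genes tested. For the GC trend, log2 values were centred per gene on the 24 samples, and in each sample a lowess curve (span 0.3) of these deviations on GC content, set by 9313 genes whose mean reached 10 CPM, was subtracted. The model was also run on simulated data with straight GC trends, unlike the curved one of fl/fl pair 1, and no result here rests on that run.

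Named genes are the 10 largest rises and falls called in both fits, the 3 largest called in 1 fit only, all tested feedback inhibitors and TCF/LEF factors, called and most abundant members of other lists, and 6 genes of interest (Ctnnb1, Bcl9, Bcl9l, Myc, Ccnd1 and Cdh1). Some of these are given only as counts, and 1 gene that this rule names is not reported here. The samples, lists and tests were chosen with earlier results of these data known. Alternatives were edgeR 4.0.16 on the recovered reads, no block, pseudocount 0.1, no filter, rescaling by the median of ratios, all 56 samples or only those compared, an unadjusted p with 1.5-fold, other GC curves and leaving out each pair. Figures were drawn with Python 3.11.15 and matplotlib 3.10.9.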

Additional observations from a re-analysis of the deposited data

Results flagged for a closer look

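Differences in the Wnt3a response between genotypes passed the test of the difference for 511 genes (D164A/- against fl/fl) and 2153 genes (D164A/fl against fl/fl). Of the 175 named genes, 23 passed it in both comparisons with and without the GC trend. Without the pairing, 2 of these 23 (Bpifb4 and Il17rd) passed for D164A/- and 14 for D164A/fl. Values below are the D164A/- and then the D164A/fl response minus that of fl/fl cells, on the log2 scale in the deposited values, and the fl/fl samples are shared.

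Genes with a larger rise or a smaller fall in D164A cells included the receptor gene Ahr (2.02 and 2.92), the destruction complex gene Apc (1.59 and 1.77), the Ets factor gene Ehf (2.08 and 2.02), the peptidase gene Mme (3.38 and 3.09), and Hsp90aa1 (2.11 and 1.99). The same held for Akap9 (2.29 and 2.34), Dek (1.94 and 1.43), Pcf11 (1.93 and 1.81) and Tmed5 (1.97 and 1.28), which are among the largest falls in fl/fl cells. It also held for the deiodinase gene Dio2 (3.42 and 4.41), Il17rd, a restrainer of FGF signaling (3.27 and 3.57), Calm4 (1.16 and 5.52), Cryba4 (2.62 and 3.44), Tnfrsf19 (1.44 and 1.29) and the ligand gene Wnt7a (1.47 and 1.39). In the fl/fl samples compared, Tnfrsf19 had at most 1 read and Calm4 at most 9 reads each. Their differences thus rest on the levels in D164A cells.

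Genes with a lower response in D164A cells were the TCF/LEF factor gene Tcf7 (-1.43 and -2.0), the R-spondin receptor gene Lgr6 (-2.67 and -2.40), Gxylt2 (-2.06 and -1.89), Col3a1 (-1.39 and -1.34), the vimentin gene Vim (-2.77 and -3.35), the transferrin gene Trf (-2.67 and -5.16), the placental growth factor gene Pgf (-2.41 and -4.19) and Bpifb4 (-3.57 and -2.09). Bpifb4 had only 7 to 9 reads in each fl/fl sample compared, so that its difference likewise rests on the D164A levels. Groups of 2 samples allowed no test for single outlying samples.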

How the results depend on the processing

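The fl/fl response (1489 genes) became 66 with no replicate block, 690 with the GC trend removed, 113 with the GC trend removed and no block, 857 with all 56 samples in the fit, 3686 at an unadjusted p of 0.05 and 1.5-fold, and 521 to 3152 without replicate 1 or 2. With only the samples compared, limma called 0, with 1689 genes at an unadjusted p under 0.05, while edgeR on all 24 samples called 1687. With the GC trend removed (690 genes), the count was 113 with no block, 1527 with no filter, 162 with only the samples compared, 2099 at the looser threshold and 394 to 1585 without a pair. The share called up was 8.19% in the deposited values, 30.3% with no block, 39.2% at the looser threshold, 32.1% without pair 2 and 40.4% with the GC trend removed, where no filter made it 73%, no block 34.5%, and edgeR 26%, leaving out pair 1 24.1% and only the samples compared 27.8%.

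The D164A/- difference (511 genes) was 7 with no block, 8 with the GC trend also removed, 78 with no filter, 81 with all 56 samples, 3040 at the looser threshold and 165 to 2832 without a pair. With only the samples compared limma called 0 (1855 at an unadjusted p under 0.05), and edgeR called 368 over all 24 samples. The D164A/fl difference (2153 genes) was 420 with no block, 555 with the GC trend also removed, 822 with all 56 samples, 21 with only the samples compared, 4906 at the looser threshold and 976 to 4127 without a pair. Leaving out a pair assumes that the remaining samples vary like the other groups.

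Of the 175 named genes, 64 lost their call with no block and 34 with the GC trend removed, and edgeR took the call from 6. A change of sign was counted where 1 of both fits called the gene. This happened for Klk7 without replicate 1 (-0.04, but 4.34 without replicate 2) and, with the GC trend removed, for Mir703 (2.92), Znf41-ps (2.55), Fabp4 (1.5), Csn3 (1.77), Ccne2 (0.25) and Idi1 (0.23). The cause was not tested, except that the subtracted curve by its construction shifts every gene and can give genes near 0 all of their change. The 1-read step of 0.0315 to 0.0451 CPM limits genes such as Ccdc80.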
